A study of Mus musculus with 32 samples.

Results

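Cholesterol synthesis and its control were followed in mouse photoreceptors through 8 genes: the enzymes Hmgcs1, Idi1, Fdps, Sqle, Lss and Cyp51, the regulator Insig1 and the transcription factor gene Srebf2. They were taken by symbol from a table of gene counts, where all 8 of 8 were found and passed the filter on low counts, among 17871 genes tested of 54232 listed. Photoreceptors were collected by laser microdissection from frozen eyes, at circadian time (CT, hours of the internal day) 19, 22, 1 and 10, times chosen around the daily peak in the uptake of shed outer segments. Male mice, wild type (WT) or carrying Per1-/-Per2Brdm1 (called KO here), all 6 weeks old and of strain C57BL/6/J x 129 SvEvBrd, gave 4 libraries in each of 8 groups. Per1 and Per2 are repressors of the circadian clock, and the mutation is carried by the whole animal, not by photoreceptors alone.

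Cells build cholesterol from acetyl-CoA, first through mevalonate to farnesyl diphosphate and then through squalene and lanosterol to cholesterol. The transcription factor SREBP2, the product of Srebf2, switches on nearly every enzyme gene of this route when membranes run low in sterol, and Insig1 holds it back in the endoplasmic reticulum when sterol is plentiful. In the retina, cholesterol comes both from local synthesis and from lipoproteins of the blood, and photoreceptors need it for the membranes of outer segments that they renew every day.

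Total counts per library ranged from 23833604 to 34582742. Levels are given as CPM, counts scaled to the size of the library. Counts over the whole of Per1 and Per2 cannot show the mutated part, so they do not check the mutation: Per1 ranged over 94.3 to 145 CPM in the 16 WT libraries and 170 to 323 in the 16 KO libraries, and Per2 over 15.2 to 44.2 and 168 to 267, with no overlap for either. The rod markers, 12 of 12 measured, averaged 11.8 to 12.5 on the log2 CPM scale in every library, and the cone markers, 10 of 10 measured, 7.09 to 7.80. The libraries also held RNA of other cells: the 40 inner retinal markers (bipolar, amacrine and Müller glia) averaged 2.94 ± 0.38 (SD, n = 4, log2 CPM) in WT at CT10, between 3.48 and 3.95 at the other WT times and between 3.63 and 4.16 in KO. Their summed levels ran from 368 to 764 CPM in WT and 470 to 915 CPM in KO for the bipolar list, 94.4 to 198 and 126 to 252 for the amacrine list, and 441 to 1150 and 707 to 1480 for the Müller list. In the mean of the 4 times, where 16.3% of all tested genes were called, 11 of 14 bipolar, 5 of 12 amacrine and 5 of 14 Müller markers were called higher in KO and none lower. Of the rod markers 5 of 12 were called, 4 of them lower in KO, and of the cone markers 5 of 10, also 4 of them lower. Among other cell types edgeR called 6 of 8 horizontal cell markers (5 higher), 5 of 8 endothelial (all higher), 2 of 7 microglial (both higher), 1 of 8 ganglion cell (higher), 1 of 14 lens (lower) and 0 of 9 pigment epithelium markers. The summed level of the horizontal list was nevertheless lower in KO, at 388 to 485 CPM against 493 to 670 in WT. Lens markers, 14 of 14 measured, summed to 69.7 to 12100 CPM in WT and 232 to 6880 in KO, and no marker of these lists was at 0 in all libraries. WT CT1 replicate 5 carried 2 animal numbers in its label. In bulk RNA, fewer cells of a type and less RNA per cell cannot be told apart.

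The promoters of 4 of the genes are printed first, Lss and Srebf2 because their levels differed between groups, Hmgcs1 and Insig1 because they held the sterol and clock motifs searched for. The stretches are RefSeq promoter sequence on build GRCm38.p6, 150 bases each, 5′ to 3′ on the strand of the gene, and each ends before the first annotated exon of its gene. They lie at chr10:76531438-76531587 (plus strand), chr15:82147031-82147180 (plus), chr13:119690201-119690350 (plus) and chr5:28071213-28071362 (plus), and capitals mark the motifs.
Lss: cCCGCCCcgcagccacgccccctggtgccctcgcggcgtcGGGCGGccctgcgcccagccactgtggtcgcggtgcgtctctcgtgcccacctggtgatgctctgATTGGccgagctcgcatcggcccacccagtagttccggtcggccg
Srebf2: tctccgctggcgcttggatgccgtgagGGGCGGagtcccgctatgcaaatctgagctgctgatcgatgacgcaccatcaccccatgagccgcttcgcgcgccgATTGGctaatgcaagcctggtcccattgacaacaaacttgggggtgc
Hmgcs1: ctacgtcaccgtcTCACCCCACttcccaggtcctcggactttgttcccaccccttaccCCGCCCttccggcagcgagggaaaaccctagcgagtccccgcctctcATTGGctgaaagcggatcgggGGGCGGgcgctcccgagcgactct
Insig1: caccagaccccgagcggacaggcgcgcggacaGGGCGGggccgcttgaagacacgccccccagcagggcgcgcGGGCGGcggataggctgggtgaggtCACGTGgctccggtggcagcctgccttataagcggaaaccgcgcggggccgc
Promoter entries, 250 bases before to 50 after the start, were matched for 6 of the 8 genes (Lss, Hmgcs1, Idi1, Cyp51, Insig1 and Srebf2). On either strand of these windows, the CCAAT motif (CCAAT) was found in 6 of 6, against 37.4% of 32851 promoter windows of the same length, and the GC box (GGGCGG) in 6 of 6, against 35.7%. The sterol response motif TCACNCCAC was in 1 of 6 (Hmgcs1, against 1.24% of all windows), the E-box CACGTG bound by clock factors in 1 of 6 (Insig1, against 7.15%) and the D-box TTATGTAA in 0 of 6 (against 0.938%). Some of these matches lie outside the printed stretches, and none overlapped a match of another motif. A match describes letters in this window and is not shown to be a bound site.

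Across the 8 groups the 8 genes covered a wide range of levels. Per kb of annotated exon, Hmgcs1 was highest (13.1 CPM per kb), then Srebf2 (8.76), Cyp51 (8.06), Sqle (5.80), Lss (4.68), Insig1 (2.79), Fdps (0.693) and Idi1 (0.246). With the length of the principal transcript in place of all annotated exons, a choice made after seeing the data, Lss moved from 4.68 to 10.8 CPM per kb and Fdps from 0.693 to 2.11, Sqle from 5.80 to 11.7, and Cyp51 then ranked below both Sqle and Lss. Hmgcs1 and Srebf2 stayed first and second, and Insig1, Fdps and Idi1 stayed the lowest on either length.

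The 2 lowest genes were also the least securely counted. Fdps makes farnesyl diphosphate, the branch point to sterols and prenyl groups, and 4 annotated copies elsewhere matched at least 50% of its principal transcript, Gm3571 at 98.9% identity and Gm5873 and Gm8163 at 96.7% and 96.1%. Gm3571 had 19 to 52 counts in a library and Gm5873 7 to 50, beside 63 to 114 for Fdps itself, and 26.7% of the exon sequence of Fdps is shared with Gm43738 on the same strand, which had 0 counts in every library. Idi1 interconverts the isoprenoid units IPP and DMAPP. It had 5 to 53 counts a library, beside 2 to 42 for Gm13502, whose 684 matching bases were 100% identical. How the counting treated reads that fit both a gene and its copy is not given in the sources used here, so the levels of Fdps and Idi1 are uncertain. Lss, Hmgcs1, Idi1 and Cyp51 overlap a gene on the opposite strand, the best expressed being Akap9 (3649 to 8174 counts), which shares 166 bases with Cyp51. Whether counting used the strand is not given either.

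**Figure D1:**
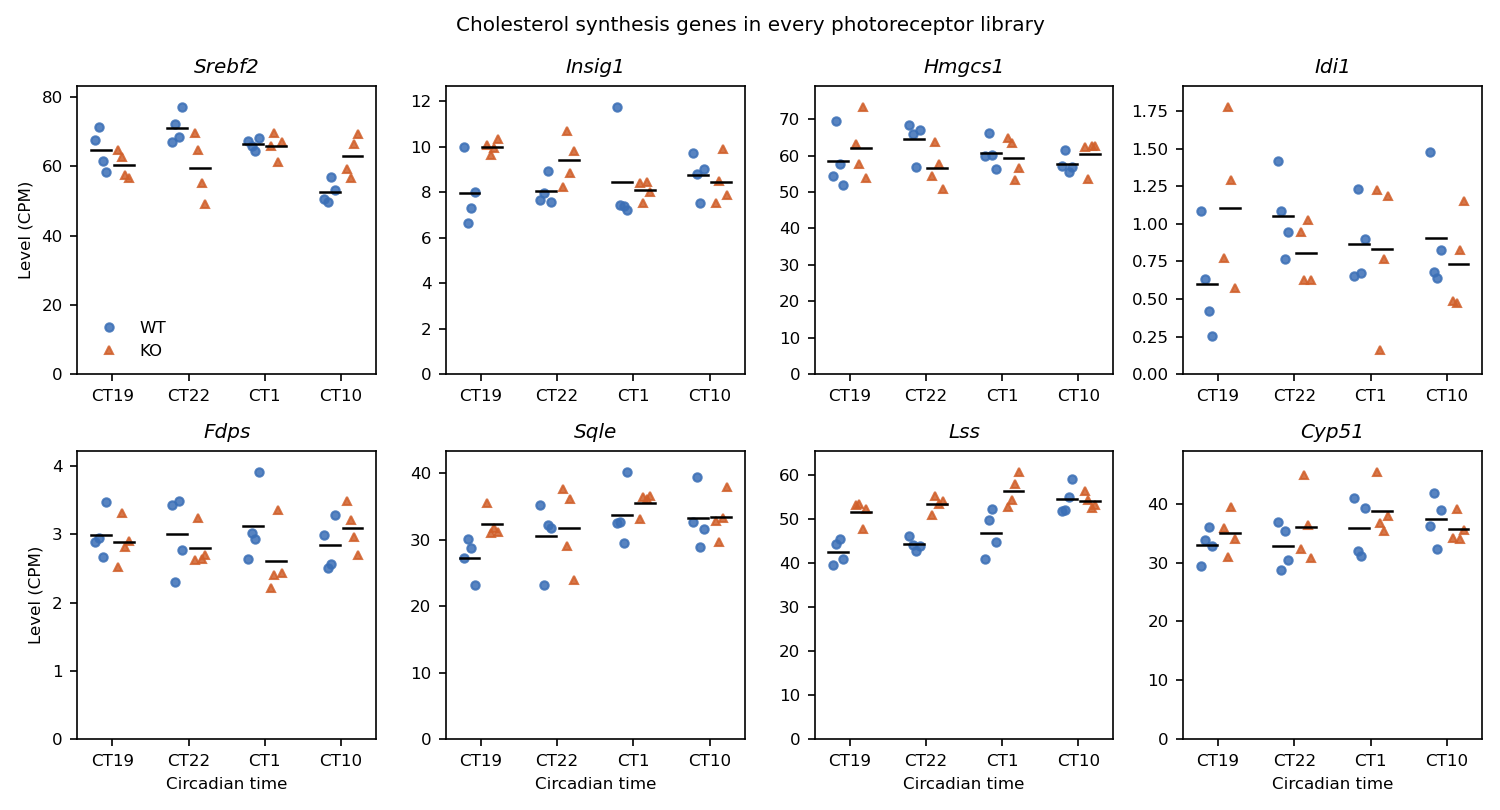
Level of each gene in every library, in TMM-scaled CPM on a linear axis from 0, by circadian time. Each point is 1 library, blue circles WT and orange triangles KO, and black bars are means of 4. Lss in KO lies above WT at CT19, CT22 and CT1 and overlaps it at CT10, and Srebf2 in WT is lowest at CT10.

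Lss, lanosterol synthase, closes oxidosqualene into the first sterol ring system. It is ENSMUSG00000033105 on GRCm38 chromosome 10, 76531588 to 76557138, plus strand. The 4 WT libraries of CT19 had 39.6, 41.0, 44.3 and 45.6 CPM of Lss, the 4 KO libraries 47.7, 52.2, 53.2 and 53.4. At CT22 the WT libraries had 42.7, 43.9, 44.2 and 46.2, the KO libraries 51.0, 53.5, 54.2 and 55.2. All 4 KO libraries were above all 4 WT libraries at both times. At CT1 the WT values were 40.8, 44.9, 49.7 and 52.2 and the KO values 52.7, 54.4, 57.9 and 60.6, again with no overlap but with the groups close at the edge. At CT10 WT had 51.8, 52.0, 54.9 and 59.1 and KO 52.5, 53.2, 54.4 and 56.3, so that KO lay within the range of WT. The 16 KO libraries thus kept between 47.7 and 60.6 CPM at every time. All 4 WT libraries lay in that range at CT10, and at CT1 the WT libraries with 49.7 and 52.2 did.

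Averaged over the 4 times, Lss was higher in KO by 0.20 on the log2 scale (SE 0.03, 1.15-fold, 95% interval 1.09 to 1.21; edgeR quasi-likelihood test, Benjamini-Hochberg adjusted p = 0.000121). It was the only one of the 8 genes called at an adjusted p under 0.05, 1 of 8 where 16.3% of all tested genes were called. At single times the edgeR difference was 0.28 at CT19 (SE 0.07, adjusted p = 0.0180), 0.27 at CT22 (SE 0.07, adjusted p = 0.0365), 0.27 at CT1 (SE 0.07, adjusted p = 0.0412) and -0.01 at CT10 (SE 0.07, adjusted p = 0.953). Of the 8 genes, 1 was called at CT19 (background 5.19%), 1 at CT22 (1.53%) and 1 at CT1 (1.58%), in each case Lss. At CT10 edgeR called 0 of 8 (background 10.2%), and 1 had an unadjusted p under 0.05, beside 4288 of all 17871 tested genes. DESeq2 called 1 there, Srebf2, beside 2237 over all genes.

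The difference in Lss over the 4 times passed under every alternative run, at 0.25 with the inner retinal level as a covariate and 0.26 with the lens level added (edgeR adjusted p = 0.000629 and 0.00139), and at an adjusted p of 3.93e-05 to 0.000488 when any of the 32 libraries was left out. The calls at single times were less firm. At CT19 the call was lost without KO replicate 2 or 3 (adjusted p = 0.0603 and 0.0507), and at CT22 without any WT library or without KO replicate 2, 3 or 4 (0.0538 to 0.123). At CT1 it was lost without WT replicate 1 or 5 or KO replicate 4, 5 or 6 of that time, and without any 1 of 8 libraries of other times (WT CT22 replicates 2 and 6, WT CT10 replicates 2 and 4, KO CT19 replicate 2, KO CT22 replicates 2 and 3 and KO CT10 replicate 5), with adjusted p up to 0.216. Without any filter on low counts all 3 calls were lost (edgeR adjusted p = 0.0647, 0.126 and 0.215), with differences of 0.29, 0.29 and 0.26. With the inner retinal covariate all 3 were called, at 0.33, 0.28 and 0.28 (adjusted p = 0.0149, 0.0231 and 0.0229). At CT10 the difference was then 0.09, and 0.14 with the lens level added, neither of them called (edgeR adjusted p = 0.765 and 0.795).

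Sqle, squalene epoxidase, makes the substrate of Lss and is a control point of the sterol branch. The WT libraries of CT19 had 23.2, 27.2, 28.7 and 30.1 CPM of Sqle, the KO libraries 31.01, 31.1, 31.7 and 35.5. The groups did not overlap, but the test did not pass, with a difference of 0.24 (SE 0.13, edgeR adjusted p = 0.272). At the other 3 times the ranges overlapped and the differences lay between 0.01 and 0.07. Counting genes in which all 4 KO libraries were above all 4 WT libraries, 2 of 8 did so at CT19 (Lss and Sqle, background 5.52%), 1 at CT22 (Lss, 3.61%), 1 at CT1 (Lss, 3.40%) and 0 at CT10 (10.5%).

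**Figure D2:**
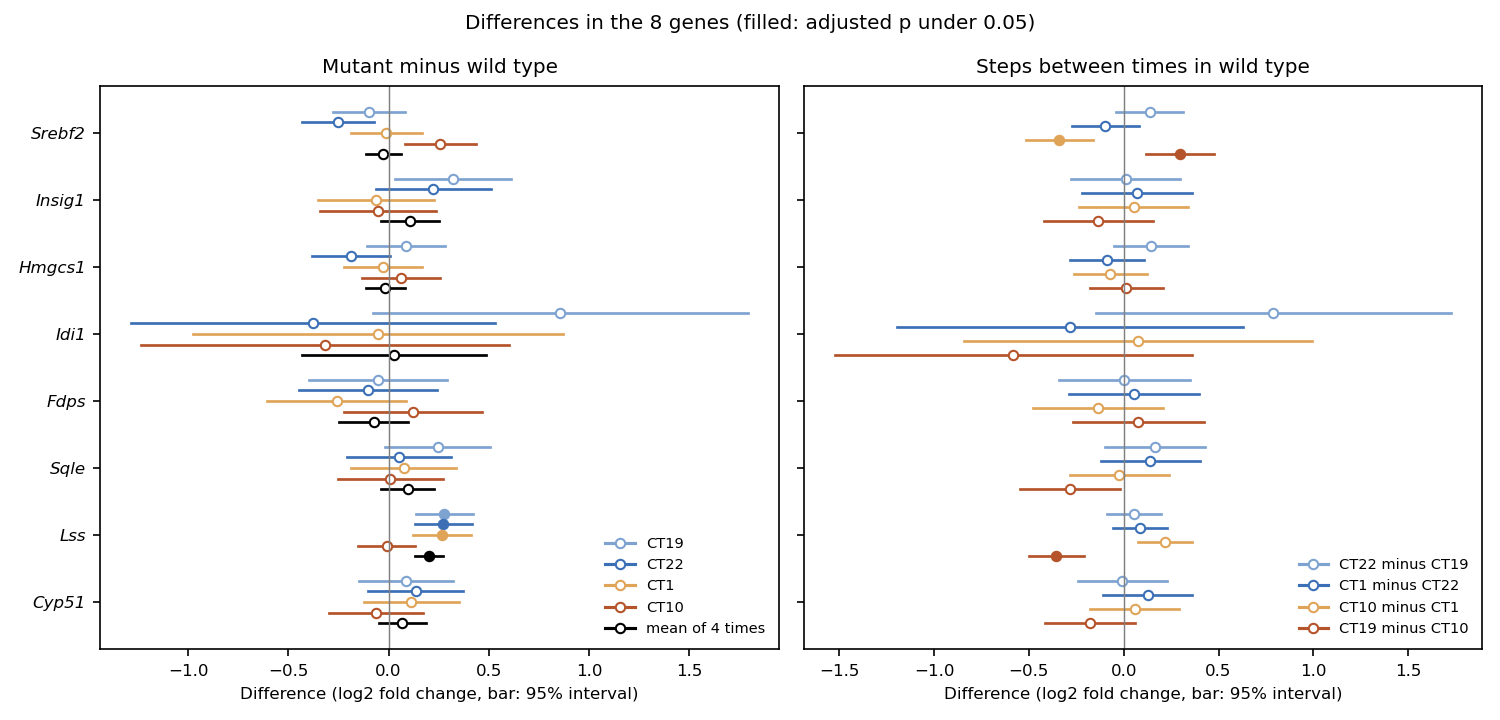
Differences on the log2 scale with 95% intervals for the 8 genes, KO minus WT on the left and steps between times in WT on the right; filled points had an adjusted p under 0.05. On the left only Lss is filled, at CT19, CT22, CT1 and in the mean, and on the right Lss (CT19 minus CT10) and Srebf2 (CT10 minus CT1 and CT19 minus CT10).

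Srebf2 differed in another way. It is ENSMUSG00000022463 on GRCm38 chromosome 15, 82147181 to 82205379, plus strand. The WT libraries had 58.2, 61.4, 67.5 and 71.4 CPM of Srebf2 at CT19, then 66.9, 68.4, 72.1 and 77.0 at CT22 and 64.5, 66.0, 67.3 and 68.3 at CT1. At CT10 they had 49.9, 50.5, 53.1 and 56.8. Every WT library of CT10 was below every WT library of the other 3 times. The KO libraries had 56.7, 57.5, 62.6 and 64.8 at CT19, then 49.04, 55.3, 64.8 and 69.5 at CT22, 61.3, 65.8, 67.05 and 69.6 at CT1, and 56.5, 59.2, 66.6 and 69.4 at CT10. The KO groups overlapped each other, and at each time they overlapped WT too, at CT10 by 1 library of each genotype.

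Over the 4 times Srebf2 in KO was at -0.03 relative to WT (SE 0.04, edgeR adjusted p = 0.736). The single times had differences of opposite sign, -0.25 at CT22 (SE 0.09, adjusted p = 0.175) and 0.26 at CT10 (SE 0.09, adjusted p = 0.0554), neither of which passed. The one at CT10 did pass with DESeq2 (adjusted p = 0.0436) and without WT CT10 replicate 4, KO CT10 replicate 3 or KO CT22 replicate 1 or 4 (edgeR adjusted p = 0.0348 to 0.0498). With the inner retinal covariate it was 0.11 (adjusted p = 0.772).

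Time of day was tested within each genotype. In WT, 2 of 8 genes differed between times (Lss and Srebf2; background 14.6%), with a range between the lowest and highest time of 0.35 for Lss (edgeR F test, adjusted p = 0.00252) and 0.44 for Srebf2 (adjusted p = 0.00461), both on the log2 scale. They went opposite ways at CT10, where Lss had its highest WT mean (54.5 CPM, against 42.6 at CT19) and Srebf2 its lowest (52.6 CPM, against 71.1 at CT22). In KO, edgeR called 0 of 8 (background 0.00560%), 0 had an unadjusted p under 0.05 (1862 of all 17871 tested genes did), and DESeq2 called 0. The KO means of Lss ran from 51.7 to 56.4 CPM and those of Srebf2 from 59.6 to 66.0.

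The calls between neighbouring times in WT all involved CT10. From CT22 to CT1 and from CT19 to CT22 edgeR called 0 of 8 genes and 0 of all tested genes (background 0% for both steps), although 1879 and 1213 of all genes had an unadjusted p under 0.05, and DESeq2 called 9 and 2 genes but none of the 8. From CT1 to CT10 edgeR called 1 of 8, Srebf2, which fell by 0.34 (SE 0.09, adjusted p = 0.0190; background 5.80%), while Lss was at 0.22 (SE 0.07, adjusted p = 0.0609). Between CT10 and CT19, 2 of 8 were called (background 16.1%): Lss was lower at CT19 than at CT10, at -0.35 (SE 0.07, adjusted p = 0.000818), and Srebf2 higher, at 0.30 (SE 0.09, adjusted p = 0.0187). DESeq2 called both genes in both steps. In KO the 4 steps gave 0 of 8 with either tool, and 0 of 8 had an unadjusted p under 0.05 in the edgeR test; the background was 0%, 0%, 0% and 0.00560%.

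Single libraries moved some of these step calls. The fall of Srebf2 from CT1 to CT10 was lost without WT CT1 replicate 5, WT CT10 replicate 1 or WT CT10 replicate 2 (edgeR adjusted p = 0.0543 to 0.0577), and its difference between CT10 and CT19 without WT CT19 replicate 1 or 2 or WT CT10 replicate 1 or 2 (0.0502 to 0.0766). The difference of Lss between CT1 and CT10 was called without WT CT1 replicate 3 or 4 or KO CT22 replicate 4 (0.0254 to 0.0491). The F tests in WT passed without any 1 of the 32 libraries, with adjusted p up to 0.0229 for Lss and 0.0301 for Srebf2.

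The inner retinal level moved with these WT changes, being lowest at CT10, and the lens level was higher in WT at CT1 and CT10 (6.92 and 6.54, mean log2 CPM) than at CT19 and CT22 (3.04 and 3.94). With the inner retinal level as a covariate neither gene was called for time in WT (edgeR adjusted p = 0.132 for Lss and 0.216 for Srebf2). The ranges between times were 0.28 for Lss and 0.29 for Srebf2 in that fit, beside 0.35 and 0.44 without the covariate. Srebf2 from CT1 to CT10 was at -0.26 with it (edgeR adjusted p = 0.104) and -0.34 without. The covariate itself differed between WT times, so a lost call does not show that a time difference was absent. The difference of Lss between CT10 and CT19 was -0.28 with the inner retinal covariate (adjusted p = 0.0264), and with the lens level added -0.23 (adjusted p = 0.267). Srebf2 between CT10 and CT19 was 0.19 and 0.12 under these covariates (adjusted p = 0.249 and 0.681). How much of the WT time differences came with other cells was not tested beyond these fits.

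**Figure D3:**
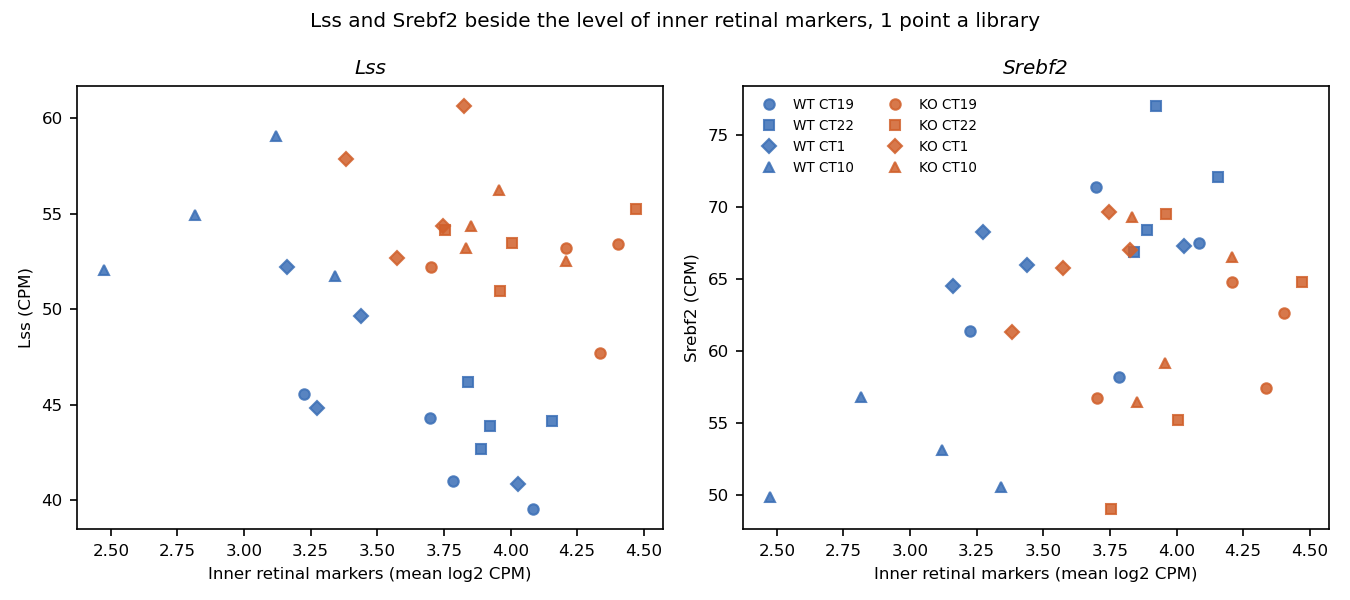
Level of Lss (left) and Srebf2 (right) in CPM against the mean log2 CPM of 40 inner retinal markers, 1 point a library; colour gives the genotype and shape the time. The WT libraries of CT10, between 2.47 and 3.34, include the 3 lowest on the marker axis; they have high Lss and low Srebf2 among WT.

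Whether the genotype difference itself depended on time was asked with an interaction test. EdgeR called 0 of 8 (background 1.62%), and 2 had an unadjusted p under 0.05, beside 2956 of all 17871 tested genes. DESeq2 called 1, Srebf2 (adjusted p = 0.0316), beside 897 over all genes. The edgeR adjusted p was 0.187 for Lss and 0.0850 for Srebf2, and without KO CT22 replicate 1 it was 0.0320 for Srebf2. The pattern of Lss, higher in KO at 3 times and level at CT10 in the fit without covariates, was therefore not shown to differ between times.

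Sqle and the other 5 genes passed no edgeR test of genotype or time. Insig1, whose product retains the SREBP complex, had 9.64, 9.91, 10.1 and 10.3 CPM in the KO libraries of CT19 against 6.62, 7.29, 7.99 and 9.98 in WT. The highest WT library was above 2 of the KO ones. The difference was 0.32 (95% interval 0.03 to 0.61, edgeR adjusted p = 0.178), and at CT10 it was -0.05 (interval -0.34 to 0.23, adjusted p = 0.862). Hmgcs1, which makes HMG-CoA, had group means of 56.6 to 64.5 CPM, and its mean difference between genotypes was -0.02 (interval -0.11 to 0.08, adjusted p = 0.853). Cyp51, the lanosterol demethylase that acts after Lss, had group means of 32.8 to 38.8 CPM and a difference of 0.07 (interval -0.05 to 0.19, adjusted p = 0.467). The lower bound for Lss in the mean was 0.13, above the upper bound for Hmgcs1 and within the interval of Cyp51. Fdps, at 2.60 to 3.12 CPM, gave -0.07 (interval -0.25 to 0.10, adjusted p = 0.606), and Idi1, at 0.600 to 1.10 CPM, gave 0.03 (interval -0.43 to 0.49, adjusted p = 0.950), an interval that holds the 0.20 of Lss. At CT19 Idi1 stood at 0.256 to 1.09 CPM in WT and 0.574 to 1.78 in KO, a difference of 0.86 with an interval of -0.08 to 1.79 (adjusted p = 0.281).

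Over the 8 genes the median difference between KO and WT was 0.05 in the mean of the 4 times, with 5 of 8 above 0, beside -0.003 over all tested genes. At CT19 it was 0.17, with 6 of 8 above 0, beside 0.007, and at CT22, CT1 and CT10 it was -0.02, -0.02 and -0.001. The genes varied largely apart from each other across the 32 libraries. The highest of the 28 pairwise correlations of log2 CPM were between Sqle and Cyp51 (Pearson r = 0.46, Spearman rho = 0.44) and between Hmgcs1 and Srebf2 (r = 0.43, rho = 0.43), and the lowest was between Lss and Srebf2 (r = -0.40, rho = -0.44). These values pool genotypes and times and share libraries and depth, so they describe the samples only. Outside the 8, 6 genes followed the mean of their standardised levels most closely over the 32 libraries: Mvb12b (r = 0.78), Hsd17b4 (0.76), Prkacb (0.75), Galk2 (0.73), Cyfip2 (0.71) and Ywhab (0.70). The members themselves had 0.16 (Fdps) to 0.70 (Sqle). These 6 were picked for the highest r among all tested genes above a floor of expression. The members were not picked by r, so the ranges cannot be compared.

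**Figure D4:**
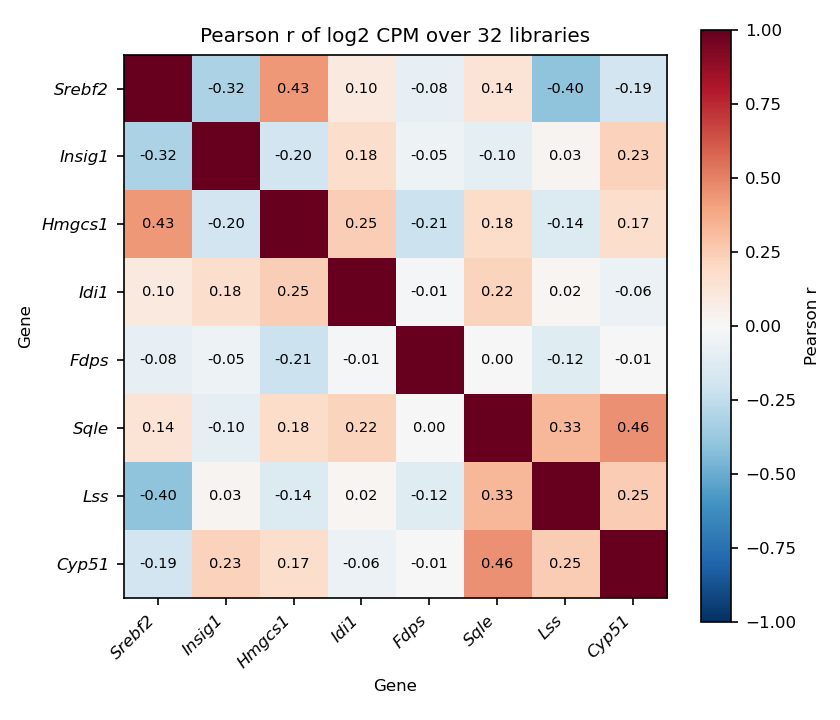
Pearson r of log2 CPM between each pair of the 8 genes over 32 libraries, from blue (negative) to red (positive). Off the diagonal the values run from -0.40 (Lss with Srebf2) to 0.46 (Sqle with Cyp51).

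Steps before and after Lss were read from a list of pathway enzymes. Of 20 enzymes between acetyl-CoA and cholesterol, 6 of them among the 8 genes, edgeR called 2 in the mean of the 4 times (Lss and Fdft1, both higher in KO; background 16.3%), and the median difference was -0.005. Fdft1, squalene synthase, the step before Sqle, rose by 0.14 (SE 0.05, adjusted p = 0.0327), with 29.98 to 41.5 CPM in WT and 31.98 to 47.7 in KO. This call was lost with the inner retinal covariate (edgeR adjusted p = 0.403) and without any filter (0.0641). It was also lost without any 1 of 13 libraries, with adjusted p up to 0.0655 (WT CT19 replicate 4, CT22 replicate 2 or 3, CT1 replicate 3 or 4 or CT10 replicate 2, or KO CT19 replicate 3 or 4, CT22 replicate 1 or 3, CT1 replicate 4 or CT10 replicate 4 or 5). At CT19 the enzymes called were Lss and Lbr, a sterol reductase of the nuclear membrane that fell by 0.25 (SE 0.07, adjusted p = 0.0398). The call of Lbr was lost with the inner retinal covariate (0.134), with no filter (0.183), with the library number in blocks (0.0515) and without any 1 of 11 libraries (up to 0.111), among them all 4 KO libraries of CT19 and WT CT19 replicates 2, 3 and 4. Fdft1 shares 18.3% of its exon sequence with Ctsb on the opposite strand, and Lbr 9.24% with Dnah14. Whether counting used the strand is not given, so the levels of Fdft1 and Lbr are uncertain. At CT22 and CT1 only Lss was called. At CT10 edgeR called 0 of 20 (background 10.2%), with 6 at an unadjusted p under 0.05, beside 4288 of all 17871 tested genes. DESeq2 called 2, Pmvk and Sc5d, beside 2237 over all genes.

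**Figure D5:**
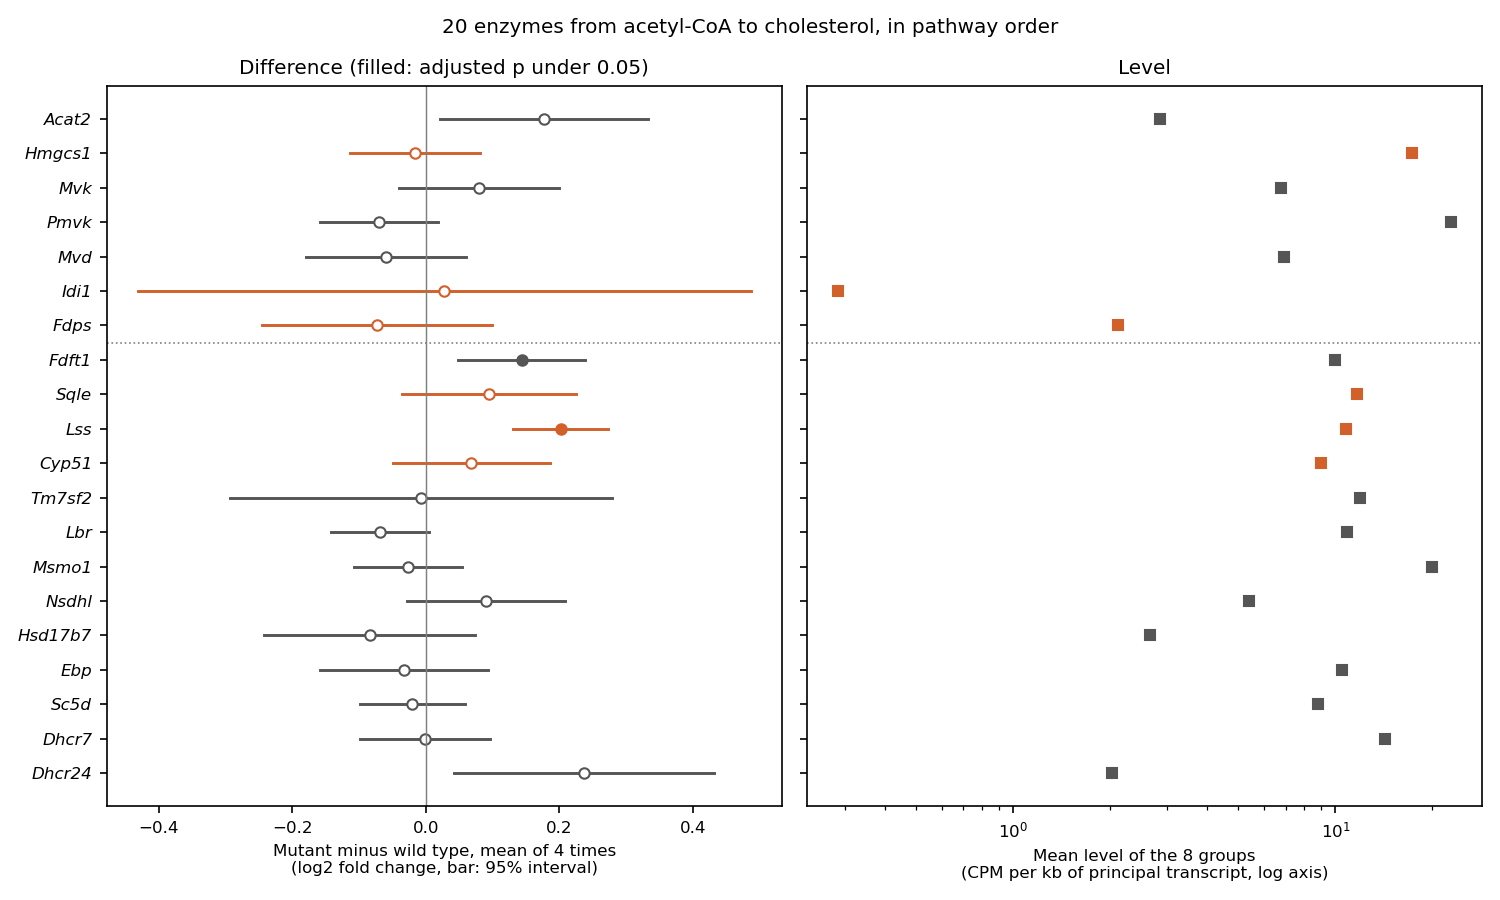
The 20 enzymes from top to bottom in pathway order, the dotted line dividing the mevalonate part from the sterol part; orange marks genes among the 8. Left, KO minus WT over the mean of 4 times (log2, 95% interval, filled where adjusted p was under 0.05): Fdft1 and Lss are filled, at 0.14 and 0.20. Right, mean level of the 8 groups in CPM per kb on a log axis, from 0.285 for Idi1 to 22.9 for Pmvk.

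In WT, 4 of the 20 enzymes differed between times (background 14.6%): Pmvk, Lss, Hsd17b7 and Dhcr7. Pmvk, phosphomevalonate kinase, had its 4 lowest WT libraries at CT10 (20.98 to 22.5 CPM, against 24.3 to 36.4 at the other times), a range of 0.59 on the log2 scale (edgeR adjusted p = 0.000153). Pmvk remained called with the inner retinal covariate (adjusted p = 0.00172) and with the lens level added (0.0183). Dhcr7, the last reductase of the route, was also lowest at CT10, at a WT mean of 33.6 CPM against 42.1 to 43.1 (adjusted p = 0.0193), while Hsd17b7 was highest there, at 15.9 CPM against 10.7 to 13.3 (adjusted p = 0.0214). Dhcr7 and Hsd17b7 were not called with the inner retinal covariate (0.0905 and 0.210). Dhcr7 was also lost without WT CT10 replicate 2 or 4 (up to 0.114) and Hsd17b7 without WT CT10 replicate 4 or 5 (up to 0.102). In KO edgeR and DESeq2 called 0 of the 20 for time (edgeR background 0.00560%). With edgeR 1 of the 20 had an unadjusted p under 0.05, beside 1862 of all 17871 tested genes.

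Further lists hold genes that act on SREBP2 and on the stability of the enzymes. Of 7 genes of the SREBP machinery (Srebf1, Srebf2, Scap, Insig1, Insig2, Mbtps1 and Mbtps2), edgeR called 0 between genotypes in the mean (background 16.3%), with 1 at an unadjusted p under 0.05 (5193 of all 17871 tested genes) and a median of 0.02, and DESeq2 also called 0. Of 6 genes for the degradation of enzymes of the pathway, edgeR called 0, also with 1 at an unadjusted p under 0.05 and a median of -0.05, and DESeq2 also called 0. At CT10 Rnf145, a ubiquitin ligase of that list, was called higher in KO (1 of 6, background 10.2%), by 0.23 (SE 0.07, adjusted p = 0.0454). That call was lost with the inner retinal covariate (0.403), with no filter (0.117), with the animal number as block (0.0672) and without any 1 of 18 libraries (up to 0.166), among them all 4 WT libraries of CT10. For time in WT, Mbtps2, a protease that frees SREBP from the membrane, was called beside Srebf2. Its WT mean was highest at CT10 (17.9 CPM, against 12.9 at CT19; adjusted p = 0.0252). The call was lost with the inner retinal covariate (0.122), with no filter (0.0623) and without WT CT19 replicate 2 or 4 or WT CT10 replicate 1, 2 or 4 (up to 0.0976). On the same strand 28.4% of the exon sequence of Mbtps2 is shared with Yy2, so its level is uncertain.

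Among 11 genes for uptake and transport of sterol, edgeR called 4 in the mean (background 16.3%), 2 higher and 2 lower in KO, with a median of 0.01. Lipa, the lysosomal esterase, rose by 0.53 (SE 0.12, adjusted p = 0.00172), and Lrp1, a lipoprotein receptor, by 0.48 (SE 0.16, adjusted p = 0.0353). With the inner retinal covariate these stood at 0.24 and -0.12 and were not called (adjusted p = 0.337 and 0.644). Npc1, which moves cholesterol out of lysosomes, had 105 to 236 CPM in WT and 99.4 to 192 in KO, with means of 181 and 136, and it fell by 0.42 (SE 0.07, adjusted p = 0.000132). Npc1 was called with the inner retinal covariate too, at -0.40 (adjusted p = 0.0137), and of the single times it was called at CT22 (-0.73, SE 0.15, adjusted p = 0.00425). Scarb1, the HDL receptor, fell by 0.14 (SE 0.04, adjusted p = 0.0155), and with the covariate it was at -0.04 (0.695).

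For export and conversion of sterol, 10 of 11 genes were tested and edgeR called 3 in the mean (background 16.3%). Apoe, which encodes an apolipoprotein and is also on the marker list of Müller glia, rose by 0.28 (SE 0.09, adjusted p = 0.0331). With the inner retinal covariate, whose markers include it, Apoe was at -0.02 (adjusted p = 0.912). Cyp46a1, which hydroxylates cholesterol in neurons, rose by 0.27 (SE 0.10, adjusted p = 0.0489), a call lost without any 1 of 25 libraries (adjusted p up to 0.0915), with the animal number (0.0898) or library number (0.0568) as block and with DESeq2 size factors (0.0502). With the covariate Cyp46a1 was called at 0.42 (0.0279), and with the lens level added it was not (0.0517). Abcg4, a sterol exporter, fell by 0.15 (SE 0.05, adjusted p = 0.0203; -0.06 and 0.644 with the covariate), a call also lost without KO CT22 replicate 2 (0.0513). At CT10, where the inner retinal level of WT was lowest, edgeR called Lrp1 (1.204), Lipa (0.87), Apoe (0.95) and Cyp27a1, a mitochondrial sterol hydroxylase (1.79), higher in KO, and with the covariate it called none of these 4 (-0.16, 0.14, 0.20 and 0.26). Called lower in KO at CT10 were Ggps1 and Me1, of the isoprenoid and fatty acid lists below (background 10.2%). With DESeq2 size factors they stood at -0.20 and -0.58 (edgeR adjusted p = 0.0494 and 0.00287). With the covariate they stood at -0.20 and -0.62 and were not called (0.396 and 0.0997). The call of Ggps1 was also lost with no filter (edgeR adjusted p = 0.165), with the animal number as block (0.0967) and without any 1 of 18 libraries. That of Me1 was lost in 0 of 32 fits that left out 1 library.

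On the side branches, edgeR called 2 of 14 genes for non-sterol isoprenoids in the mean (background 16.3%), both lower in KO: Ggps1, which makes geranylgeranyl diphosphate (-0.13, SE 0.03, adjusted p = 0.00760), and Rabggtb, which attaches it to Rab proteins (-0.15, SE 0.04, adjusted p = 0.0153). Neither was called with the inner retinal covariate (0.0975 and 0.489). Of 11 fatty acid genes, targets of the related factor SREBP1, 5 were called (background 16.3%). Acaca, acetyl-CoA carboxylase, fell by 0.35 (SE 0.07, adjusted p = 0.000337) and Fads2, a desaturase, by 0.44 (SE 0.08, adjusted p = 0.000142), and both were also called with the inner retinal covariate (-0.46 and -0.43, adjusted p = 0.000716 and 0.00842). With the lens level added Acaca was called and Fads2 was not (0.00422 and 0.0559). Fads1 fell by 0.14 (adjusted p = 0.0325), while the desaturases Scd1 and Scd2 rose by 0.54 and 0.29 (adjusted p = 0.0365 and 0.0348), and these 3 were not called with the covariate (0.0614, 0.517 and 0.321). Without any filter on low counts, Lrp1, Apoe, Cyp46a1, Rabggtb, Scd1, Scd2 and Fads1 were not called either (0.0524 to 0.128), and leaving out single libraries ended the calls of Lrp1 (14 of 32 libraries), Apoe (13), Scd1 (13), Scd2 (12) and Fads1 (10).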

How the data were processed

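RNA-seq libraries (KAPA mRNA HyperPrep, RNeasy Micro RNA, per the labels' protocols) were made from laser-captured photoreceptors, 32 libraries in all. The authors deposited raw counts per Ensembl gene. Per the submitters' processing notes, Trimmomatic 0.32, HISAT2 2.1.0, Cufflinks, HTSeq 0.11 and build GRCm38.p6 were used; of the annotation release, the strand setting and reads with several positions, nothing is given in the sources used here. Names, positions and exon lengths came from GENCODE M21, which named 99.88% of the rows.

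Counts were TMM-scaled, filtered with filterByExpr over the 8 groups and fitted with 1 mean per group (24 residual degrees of freedom) by the robust quasi-likelihood test of edgeR 4.0.16 (R 4.3.3). P-values were Benjamini-Hochberg adjusted over the 17871 tested genes, and genes were called at an adjusted p under 0.05. The script was tested on simulated data. Levels are TMM-scaled CPM. Alternatives were DESeq2 1.42.0, its size factors, no filter, the animal number and the library number as blocks, inner retinal and lens marker levels as covariates, and leaving out each library. Copies were sought with blastn 2.17.0 (at least 90% identity over 100 bases). No pair of replicates agreed within sampling noise (chi-square divided by its degrees of freedom, 18.4 or more). The smallest library had 23.8 counts at 1 CPM, which limits Idi1 most.

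All 8 genes were described in each comparison, with at most 6 called genes of each pathway list, Sqle always, and the 6 genes most like the mean of the 8. The members and lists were chosen with earlier results of these data known. Labels give 1 animal and eye for each library, except WT CT1 replicate 5, whose label names 2 animals. WT CT10 replicate 5 is labelled as a right eye and the others as left. The p-values set each difference against the spread between these samples. Some genes of the pathway lists are not reported here, and list counts leave them out.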

Additional observations from a re-analysis of the deposited data

Results flagged for a closer look

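Among the 64 sets of 4 libraries (8 genes in 8 groups), 5 held a library far from the other 3, where chance alone sets apart about 1 in 20 sets. Hmgcs1 stood at 53.7 CPM in KO CT10 replicate 3, below the other 3 (from 62.4). Sqle stood at 35.5 CPM in KO CT19 replicate 2, above the other 3 (up to 31.7), and at 33.0 CPM in KO CT1 replicate 1, below the other 3 (from 36.1). Fdps stood at 3.24 CPM in KO CT22 replicate 2, above the other 3 (up to 2.69). Insig1 stood at 11.7 CPM in WT CT1 replicate 1, above the other 3 (up to 7.41), and without it the difference of Insig1 between KO and WT at CT1 went from -0.06 to 0.13, neither of them called (edgeR adjusted p = 0.892 and 0.729). No library was set apart for Lss or Srebf2.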

How the results depend on the processing

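Lss was the gene called over the mean of the 4 times in every setting run. Among the 8 genes the counts of calls changed as follows. With no low-count filter 0 were called at CT19, 0 at CT22 and 0 at CT1, where 1 (Lss) was called. At CT1 there were also 0 with DESeq2 size factors, 0 with the animal number as a replicate block and 0 with the library number in blocks of 8. At CT10, where edgeR called 0, there was 1 (Srebf2) with the animal number as a replicate block, 1 with library blocks and 1 with the DESeq2 test. For time in WT, 2 became 0 with the inner retinal covariate and 0 with the lens covariate added. For genotype by time, 0 became 1 (Srebf2) with library blocks and 1 with the DESeq2 test. From CT1 to CT10 in WT, 1 became 0 with the inner retinal covariate, 0 with both covariates and 2 with the DESeq2 test, and between CT10 and CT19 in WT, 2 became 1 and 0 with these covariates. Leaving out 1 library gave 0 to 1 at CT19, CT22, CT1 and CT10 and for genotype by time, 0 to 2 from CT1 to CT10 and 1 to 2 between CT10 and CT19 in WT. Changes of sign among the values of the 8 genes numbered 51 of 2184, none called in either setting, and the cause of all these changes was not tested.

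Over all genes, the inner retinal covariate left 828 calls of 2909 in the mean, 457 of 928 at CT19, 226 of 1825 at CT10, 1357 of 2615 for time in WT and 158 of 289 for genotype by time; with the lens level added these were 614, 383, 61, 396 and 4, and between CT10 and CT19 in WT 497 of 2880. With no filter there were 546 at CT19 and 618 of 1036 from CT1 to CT10 in WT. The DESeq2 test called 1463 at CT19, 446 against 273 at CT22, 482 against 282 at CT1, 1568 from CT1 to CT10 in WT, 897 for genotype by time and 188 against 1 for time in KO. Between CT19 and CT10 in KO, edgeR's 1 call became 6 with the animal number as replicate block, 3 with no filter and 173 with the DESeq2 test.

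Libraries with the same animal number did not deviate together on average (mean r = 0.0106 over 77 pairs, against -0.00204 for others). This mean cannot show what the numbers stand for, and the main fit did not use them as a block. Among the 8 genes the replicate block changed no calls but those at CT1 and CT10 given above. Depth limits Idi1 and Fdps most.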
